A study of Mus musculus with 18 samples.

Results

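The genes described are 9 mouse genes that handle minerals and ions in cells that make milk, of 31053 features counted in every library. They were taken as a list of names: the phosphate carrier Slc34a2, the calcium pumps Atp2b2, Atp2c1 and Atp2c2, the zinc carrier Slc30a2, the iodide carrier Slc5a5, the carbonic anhydrase Car2, the potassium channel Kcnk6 and the proton pump subunit Atp6v1b1. The list was chosen with earlier results of these data known. Of the 17 mammary libraries, all 17 held transcripts (unique molecular identifiers, UMIs) of 8 of the genes and 10 held those of Atp2b2. Over all kept mammary cells the genes gave 2180 (Slc30a2) to 50947 (Car2) UMIs.

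Milk supplies the newborn with calcium, phosphate, zinc and iodide. Secretory alveolar cells take up ions from the blood side, load calcium and zinc into Golgi and secretory vesicles, where casein micelles form, and pass ions across the apical membrane into milk. Carbonic anhydrases, potassium channels and proton pumps act on the pH and on the ion gradients of such cells.

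Single-cell RNA was counted with 10x Chromium chemistry in sorted mouse mammary cells, to ask how the epithelium changes through development and the pregnancy cycle. The FVB/NJ libraries came from adult virgins at 10 weeks (A10, P7 and D12), pregnancy day 12.5 (H and G), pregnancy day 18.5 (F4 and B4), lactation 10 days after birth (F11 and D6) and, as 1 library, the post-involution gland, labelled 3 weeks after birth. The study's text counts the weeks of the post-involution gland from weaning and not from birth, and gives a younger age for the glands before puberty. For lactation its methods give the day of the label, and other passages give other times. The ages here are those of the labels. C57BL/6 mice gave 1 library for each of 6 samples. These were the mammary rudiment at E18.5 (located by an Lgr5-GFP reporter), glands of postnatal day 5, glands before puberty at 2.5 weeks, ducts and, apart from them, the terminal end buds (TEBs) of pubertal mice aged 5 weeks (dissected under an E-cadherin-GFP reporter), and adult virgin glands at 10 weeks. SWISS mice gave 1 adult virgin library at 10 weeks. Animals were pooled for a library and not staged for estrus, and blood and endothelial cells had been depleted by the sort. Replicates are therefore libraries. The study describes those of 1 stage as biological replicates. In comparisons of stages within a class the p-values measure the spread between libraries of a stage, which may also hold technical differences. The FVB/NJ libraries of 4 stages were fitted together with a shared estimate of this spread. Libraries of stages that are not compared therefore also enter a p-value. In comparisons of classes, or of changes between classes, the library was a block. The p-values there measure how the class difference varies between libraries.

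Cells were placed in classes by 8 marker genes for each of basal, luminal progenitor (LP)/alveolar and mature luminal (ML) cells, and by markers of other cell types. None of the 9 genes was a marker. Of 123574 mammary cells, 49640 were basal, 37714 LP/alveolar, 22469 ML, 5386 non-epithelial (fibroblast, endothelial and immune), 1054 mural, 327 erythroid and 6984 unresolved, and 4988 epithelial cells lay near the limit between classes. The classes are ranges of marker scores, and LP/alveolar includes secretory cells. In the E18.5 library 2403 of 6398 cells were unresolved, and its LP/alveolar and ML classes held 52 and 56 cells whose median UMIs of their own markers were 4 and 4.5. The LP/alveolar sums of the adult libraries differed in their own markers, with all 8 detected in each. The summed level of these 8 markers was 47252 CPM in P7, 15992 in A10, 2688 in D12, 3316 in C57BL/6 and 2479.6 in SWISS. It was 3995 to 4659 CPM at day 12.5, 21715 to 27982 at day 18.5 and 20149.6 to 33106 in lactation. The 8 basal markers summed to 904 CPM in LP/alveolar cells of D12 and 83.0 to 203 in those of the other adult libraries, 866 to 1114 at day 12.5, 519.6 to 1539 at day 18.5 and 89.6 to 417 in lactation. The part of these differences in the levels of the 9 genes was not tested.

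Library totals ran from 9920346 (P7) to 93234616 UMIs (D6). P7 stood apart, with cell barcodes of 14 bases where the other libraries had 16 and a median of 2498 UMIs per cell. F11 kept 48.6% and D6 68.9% of their barcodes, and every other mammary library at least 86.2%. Pairs of mammary libraries shared 0 to 239 barcodes, at most 2.41% of the smaller library. Levels are given as CPM, UMIs of the gene per 1000000 UMIs outside 8 milk genes, the caseins, Wap, Lalba and Glycam1, which took 76.6% (F11) and 77.4% (D6) of LP/alveolar UMIs in lactation. A gene is said to have risen or fallen where edgeR's quasi-likelihood test across all genes gave a Benjamini-Hochberg adjusted p under 0.05. Errors of log2 values are standard errors, and intervals in parentheses beside a level of 1 library are 95% Poisson intervals, which cover counting error only.

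The 250 bases before an annotated start are shown for 3 genes whose levels followed different courses: Slc34a2, which rose to lactation, Slc5a5, whose adult transcripts were mostly in ML cells, and Atp6v1b1, which fell in pregnancy. The sequences are from RefSeq, build GRCm38.p6, which is the assembly behind mm10, and run 5′ to 3′ on the strand of the gene. The Slc34a2 start used lies inside the annotated span of the gene, and 27 bases of the Atp6v1b1 window lie in an annotated exon. Capitals mark a match to TGTTTAC on either strand, a core bound by forkhead factors.
Slc34a2, chr5:53049103-53049352, plus strand: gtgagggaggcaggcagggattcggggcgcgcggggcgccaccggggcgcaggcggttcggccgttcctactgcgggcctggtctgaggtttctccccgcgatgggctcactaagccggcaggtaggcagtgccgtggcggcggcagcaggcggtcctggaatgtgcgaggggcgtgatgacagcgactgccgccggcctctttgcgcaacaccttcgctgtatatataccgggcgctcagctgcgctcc
Slc5a5, chr8:70892758-70893007, minus strand: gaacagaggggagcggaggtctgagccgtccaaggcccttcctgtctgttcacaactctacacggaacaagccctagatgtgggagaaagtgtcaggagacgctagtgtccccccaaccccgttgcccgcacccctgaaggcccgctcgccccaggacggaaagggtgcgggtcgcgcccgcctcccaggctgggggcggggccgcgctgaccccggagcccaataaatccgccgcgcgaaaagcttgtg
Atp6v1b1, chr6:83742767-83743016, plus strand: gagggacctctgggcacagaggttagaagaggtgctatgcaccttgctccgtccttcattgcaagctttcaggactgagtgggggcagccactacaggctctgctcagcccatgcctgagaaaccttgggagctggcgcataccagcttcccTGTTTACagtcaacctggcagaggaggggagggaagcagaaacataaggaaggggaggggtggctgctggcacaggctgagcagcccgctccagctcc
Windows were found for 6 of the 9 genes, 9 windows in all. TGTTTAC was in 2 of the 9, at Atp6v1b1, beginning 98 bases before the start, and at 1 of the Atp2c1 starts, and in 3.17% of all 32851 windows. The core TTCNNNGAA, which reads the same on both strands and is bound by STAT5, a mediator of prolactin signals, was in 0 of the 9 and in 7.02% of all windows. A match describes letters only, and its absence concerns these windows only.

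The first question was in which class of the adult gland the genes were transcribed, compared in 5 adult libraries of 3 strains with the library as a block. Car2, Atp6v1b1 and Slc34a2 were higher in LP/alveolar cells than in both other classes, Slc5a5 was higher in ML cells, and Atp2c1 was transcribed in all classes with small differences. Of the 8 genes that passed the filter on low counts (Atp2b2 did not), 4 were higher in LP/alveolar than in basal cells and 0 lower, where 45.5% of 15095 genes differed, 16.9% higher and 28.6% lower. Against ML cells 3 were higher and 2 lower, where 43.0% of genes differed, 18.1% higher and 24.9% lower.

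Car2 (chromosome 3, 14886273 to 14900770, plus strand) encodes the cytosolic carbonic anhydrase II, which interconverts carbon dioxide and bicarbonate. Its level in adult LP/alveolar cells was 106 CPM in A10, 434 in P7, 15.6 in D12, 21.7 in C57BL/6 and 102 in SWISS. Among the FVB/NJ libraries this is the order of the LP/alveolar marker sum given above, highest in P7 and lowest in D12. With SWISS (marker sum 2479.6 CPM) and C57BL/6 (3316 CPM) added, that order did not hold over all 5 adult libraries. The same libraries had 0.697 to 5.35 CPM in basal and 0.469 to 7.35 CPM in ML cells, so that every LP/alveolar level was above every level of the other classes. The difference was 5.11 ± 0.34 on the log2 scale against basal cells (edgeR adjusted p = 5.94e-08) and 4.94 ± 0.33 against ML cells (adjusted p = 1.04e-07).

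Atp6v1b1 (chromosome 6, 83742990 to 83758855, plus strand) encodes the B1 subunit of the vacuolar proton pump, known from acid-secreting cells of the kidney. Its adult LP/alveolar levels were 161 CPM in A10, 433 in P7, 205 in D12, 365 in C57BL/6 and 36.6 in SWISS. Basal cells had 1.41 to 12.9 CPM and ML cells 2.97 to 22.5 CPM, all below the LP/alveolar levels. The difference was 5.01 ± 0.29 on the log2 scale against basal (edgeR adjusted p = 2.53e-08) and 4.42 ± 0.28 against ML cells (adjusted p = 8.21e-08). SWISS was the lowest of the 5 libraries in all 3 classes.

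Slc34a2 (chromosome 5, 53038081 to 53071664, plus strand) encodes the sodium-dependent phosphate cotransporter NaPi-IIb of apical membranes. It was at 14.1 CPM in A10, 9.95 in P7, 0.465 in D12 (2 UMIs), 2.42 in C57BL/6 and 1.19 in SWISS LP/alveolar cells, against at most 0.728 CPM in basal and 0.919 CPM in ML cells. In each of the 5 libraries the LP/alveolar level was the highest. The difference was 4.35 ± 0.61 on the log2 scale against basal (edgeR adjusted p = 4.99e-05) and 3.20 ± 0.53 against ML cells (adjusted p = 0.000255).

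Slc5a5 (chromosome 8, 70882889 to 70892757, minus strand) encodes the sodium/iodide symporter, which concentrates iodide in the thyroid and the lactating breast. In adult ML cells, the class that carries hormone receptors, its level was 159.7 CPM in A10, 188 in P7, 82.0 in D12, 244 in C57BL/6 and 12.3 in SWISS. LP/alveolar cells of these libraries had 0.657 to 14.4 CPM and basal cells 0.442 to 18.7 CPM, and within each library ML was the highest. LP/alveolar differed from ML cells by -3.94 ± 0.31 on the log2 scale (edgeR adjusted p = 4.40e-07), while its difference from basal cells was 0.06 ± 0.31 (adjusted p = 0.907). SWISS was again the lowest library in all 3 classes.

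Atp2c1 (chromosome 9, 105403539 to 105527319, minus strand) and Atp2c2 (chromosome 8, 119700009 to 119757717, plus strand) encode the calcium and manganese pumps of the Golgi and secretory pathway. Atp2c1 was at 41.4 to 112 CPM in LP/alveolar, 33.4 to 76.1 CPM in basal and 51.9 to 142 CPM in ML cells, with P7 the highest in each class. Within libraries it was higher in LP/alveolar than in basal cells by 0.35 ± 0.11 on the log2 scale (edgeR adjusted p = 0.0163), and its difference from ML cells was -0.35 ± 0.11 (adjusted p = 0.0158). The first lost the call without A10 or P7 (adjusted p = 0.0506 and 0.0560), and the second without C57BL/6 or D12 (0.0947 and 0.0628) or with TMM scaling (0.0686). Atp2c2 was at 21.0 CPM in A10 and 20.4 in P7 but 2.21 to 2.99 CPM in the other 3 adult LP/alveolar sums, and no class difference passed (edgeR adjusted p = 0.592 against basal and 0.333 against ML cells). A10 and P7 also had the highest LP/alveolar marker sums of the adult libraries and the highest adult levels of Slc34a2. Of these libraries P7 had the higher marker sum and A10 the higher level of both genes. The part of the marker sums in these levels was not tested.

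The remaining 3 genes were scarce in the adult epithelium. Atp2b2 (chromosome 6, 113743831 to 114042613, minus strand), the plasma membrane calcium pump PMCA2, gave 1 UMI each in A10 and C57BL/6 and 0 in the other adult LP/alveolar sums. Slc30a2 (chromosome 4, 134343181 to 134354484, plus strand), the vesicular zinc transporter ZnT2, was at 0 to 0.955 CPM in adult LP/alveolar cells, and Kcnk6 (chromosome 7, 29221926 to 29232515, minus strand), the potassium channel TWIK-2, at 0 to 0.803 CPM. Class differences of Slc30a2 and Kcnk6 did not pass (edgeR adjusted p = 0.0721 to 0.713), although Kcnk6 against ML cells did without D12 (0.0225).

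**Figure D1:**
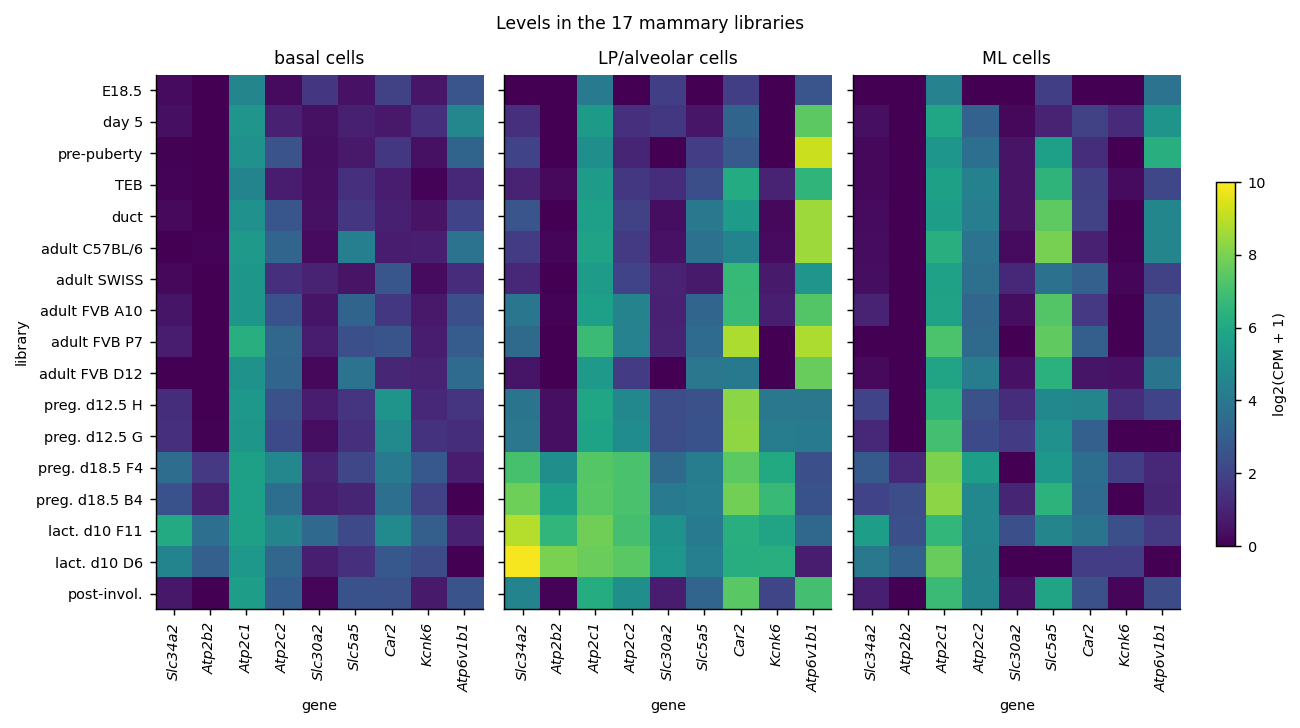
Colour gives the level of each gene on the scale log2(CPM + 1), with UMIs of 8 milk genes left out, in each mammary library for basal, LP/alveolar and ML cells. Slc5a5 is high in ML cells from before puberty to the adult, Atp6v1b1 in LP/alveolar cells from postnatal day 5 to the adult, and Slc34a2 and Atp2b2 in LP/alveolar cells of lactation.

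The second question was how the genes moved in LP/alveolar cells through the pregnancy cycle, in 9 FVB/NJ libraries of 4 stages. From the adult to lactation 6 of the 9 genes rose (Atp2b2, Kcnk6, Slc34a2, Slc30a2, Atp2c2 and Atp2c1), 1 fell (Atp6v1b1) and 2 did not pass (Car2 and Slc5a5). Of 13350 genes tested 32.4% passed, 11.9% upward and 20.6% downward. The median log2 change was 3.39 for the 9 genes and -0.38 for all genes. Because the 9 were chosen with earlier results of these data known, this contrast describes them and is no test of them as a set. TMM scaling moved the median of all genes to -0.08, a shift of 0.31, and the share of calls that were upward from 36.7% to 51.8%.

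Slc34a2 went from a low adult level to its highest level in lactation. It was at 14.1, 9.95 and 0.465 CPM in the adult (A10, P7, D12), 13.2 and 14.6 at day 12.5 (H, G), 136 and 220.0 at day 18.5 (F4, B4) and 468 and 919.6 in lactation (F11, D6). The adult and day 12.5 libraries overlapped, and each later stage lay above all earlier ones. The mean was 8.17 ± 6.99 CPM (SD, n = 3) in the adult and 694 ± 319.7 CPM (SD, n = 2) in lactation, a log2 change of 6.38 ± 0.91 (edgeR adjusted p = 0.00107). No single step passed: 0.74 ± 0.80 to day 12.5 (edgeR adjusted p = 0.582), 3.68 ± 0.95 to day 18.5 (adjusted p = 0.102) and 1.96 ± 0.88 to lactation (adjusted p = 0.254). Through the shared estimate of the spread the adult libraries also enter the later steps. Over all cells of a library, with no gate, the level was 3.74, 2.72 and 0.178 CPM in the adult and 364 and 610.0 in lactation.

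Atp2b2 moves calcium out of the cell at the apical membrane. It gave 1, 0 and 0 UMIs in the adult libraries (A10, P7, D12), and was at 0.338 and 0.343 CPM at day 12.5 (H, G), 30.3 and 48.7 at day 18.5 (F4, B4) and 94.4 and 253 in lactation (F11, D6). Day 12.5, day 18.5 and lactation did not overlap. In the adult A10 was at 0.0730 CPM, below both day 12.5 levels, while the counts of 0 in P7 and D12 allow up to 1.42 and 0.697 CPM at 3 counts, above them. The fitted step from the adult to day 12.5, 2.63 ± 1.12 on the log2 scale, did not pass (edgeR adjusted p = 0.152). Pooled over libraries, 5036 UMIs in lactation against 1 in the adult gave a ratio of levels of 4046 (95% counting interval 726 to 159834). The fitted log2 change was 11.60 ± 0.76 (edgeR adjusted p = 3.47e-05), a value that depends on the prior count. The step from day 12.5 to day 18.5 was 6.83 ± 0.62 (adjusted p = 0.00226) and that to lactation 2.14 ± 0.48 (adjusted p = 0.0321). The first step lost its call without H or G, and the second without any one of H, G, F4, B4 and D6, and on totals with the milk genes or in cells with at least 1000 genes, with D6 left out giving 1.26.

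Of the Golgi calcium pumps, Atp2c2 was at 21.0, 20.4 and 2.32 CPM in the adult (A10, P7, D12), 24.6 and 27.7 at day 12.5 (H, G), 139 and 137 at day 18.5 (F4, B4) and 131 and 175 in lactation (F11, D6). The day 18.5 and lactation ranges overlapped and lay above both earlier stages. The change from the adult to lactation was 3.39 ± 0.65 on the log2 scale (edgeR adjusted p = 0.00429), and 1.31 on totals with the milk genes, where it no longer passed.

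Atp2c1 was at 48.5, 112 and 41.4 CPM in the adult (A10, P7, D12), 57.1 and 54.8 at day 12.5 (H, G), 165 and 168 at day 18.5 (F4, B4) and 224 and 209 in lactation (F11, D6). Both later stages lay above every adult and day 12.5 library. It rose by 1.70 ± 0.42 on the log2 scale from the adult to lactation (edgeR adjusted p = 0.0134). On totals that include the 8 milk genes the value turned to -0.39, and the call was lost without F11 or D6 (adjusted p = 0.0630 and 0.0679).

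Slc30a2 loads zinc into secretory vesicles. It gave 12, 2 and 0 UMIs in A10, P7 and D12, and was at 4.08 and 4.08 CPM at day 12.5 (H, G), 10.1 and 16.0 at day 18.5 (F4, B4) and 34.2 and 37.6 in lactation (F11, D6). No stages overlapped. The step from the adult to day 12.5 was 2.63 ± 0.56 on the log2 scale (edgeR adjusted p = 0.0174) and the whole change to lactation 5.77 ± 0.55 (adjusted p = 0.000165).

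Kcnk6 belongs to the tandem-pore potassium channels. It gave 11, 0 and 0 UMIs in A10, P7 and D12, and was at 15.0 and 17.4 CPM at day 12.5 (H, G), 66.8 and 107 at day 18.5 (F4, B4) and 56.5 and 78.9 in lactation (F11, D6). Day 18.5 and lactation overlapped and lay above day 12.5, which lay above the adult. The step to day 12.5 was 5.05 ± 0.63 on the log2 scale (edgeR adjusted p = 0.00224) and the change from the adult to lactation 7.11 ± 0.64 (adjusted p = 0.000125).

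Atp6v1b1 took the opposite course. It was at 161, 433 and 205 CPM in the adult (A10, P7, D12), 14.8 and 15.8 at day 12.5 (H, G), 4.50 and 4.73 at day 18.5 (F4, B4) and 9.50 and 0.713 in lactation (F11, D6). Every pregnancy and lactation library lay below every adult one. The log2 change was -4.12 ± 0.90 to day 12.5 (edgeR adjusted p = 0.0188) and -5.76 ± 0.99 from the adult to lactation (adjusted p = 0.00269). The lactation libraries differed, with 78 UMIs in F11 and 12 in D6.

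Car2 did not pass between the adult and lactation. It was at 106, 434 and 15.6 CPM in the adult (A10, P7, D12), 303 and 319.8 at day 12.5 (H, G), 175 and 233 at day 18.5 (F4, B4) and 78.5 and 73.2 in lactation (F11, D6), so that the adult range spanned every other stage. Within pregnancy and lactation the stages did not overlap, and each later one was lower. The change from the adult to lactation was -1.28 ± 0.95 on the log2 scale (edgeR adjusted p = 0.318). Without P7 that value was 0.30, without D12 it was -1.83 and passed, and the change from the adult to day 12.5 went from 0.76 ± 0.90 (adjusted p = 0.617) to 2.34 without P7 and passed (adjusted p = 0.0445).

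Slc5a5 in LP/alveolar cells was at 8.69, 10.4 and 14.4 CPM in the adult (A10, P7, D12), 4.53 and 4.77 at day 12.5 (H, G), 17.2 and 18.2 at day 18.5 (F4, B4) and 15.7 and 18.8 in lactation (F11, D6). Day 12.5 lay below every adult library, and day 18.5 and lactation above. It fell to day 12.5 (log2 change -1.25 ± 0.31, edgeR adjusted p = 0.0296) and rose to day 18.5 (1.92 ± 0.33, adjusted p = 0.0407), and the first call was lost without any one of H, G, F4, B4 and D12 and the second without any one of H, G, F4, B4, F11 and D6, and both with a stricter gate. From the adult to lactation the value was 0.64 ± 0.30 (adjusted p = 0.120), which passed at 0.96 with TMM scaling and turned to -1.45 on totals with the milk genes.

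By step, 4 of the 9 genes passed from the adult to day 12.5 (11.7% of all genes passed, 5.18% upward and 6.55% downward), with Kcnk6 and Slc30a2 higher and Atp6v1b1 and Slc5a5 lower, and without H or without G 1 did, Kcnk6 (0.566% and 0.637% of all genes). From day 12.5 to day 18.5, 2 passed (0.727% of all genes, 0.599% upward and 0.127% downward), Atp2b2 and Slc5a5, both higher. From day 18.5 to lactation 1 passed (4.79% of all genes, 3.06% upward and 1.74% downward), Atp2b2, higher. These steps share libraries. In the middle step 7 of the 9 passed with DESeq2, where 5.84% of all genes did, and 8 with no low-count filter, where 4.42% did. Without P7 6 passed (7.50% of all genes) and without D12 6 (1.78%). P7 and D12 are adult libraries, which enter this step through the shared estimate of the spread. The calls of this step were lost without H or without G, where day 12.5 was left with 1 library.

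**Figure D2:**
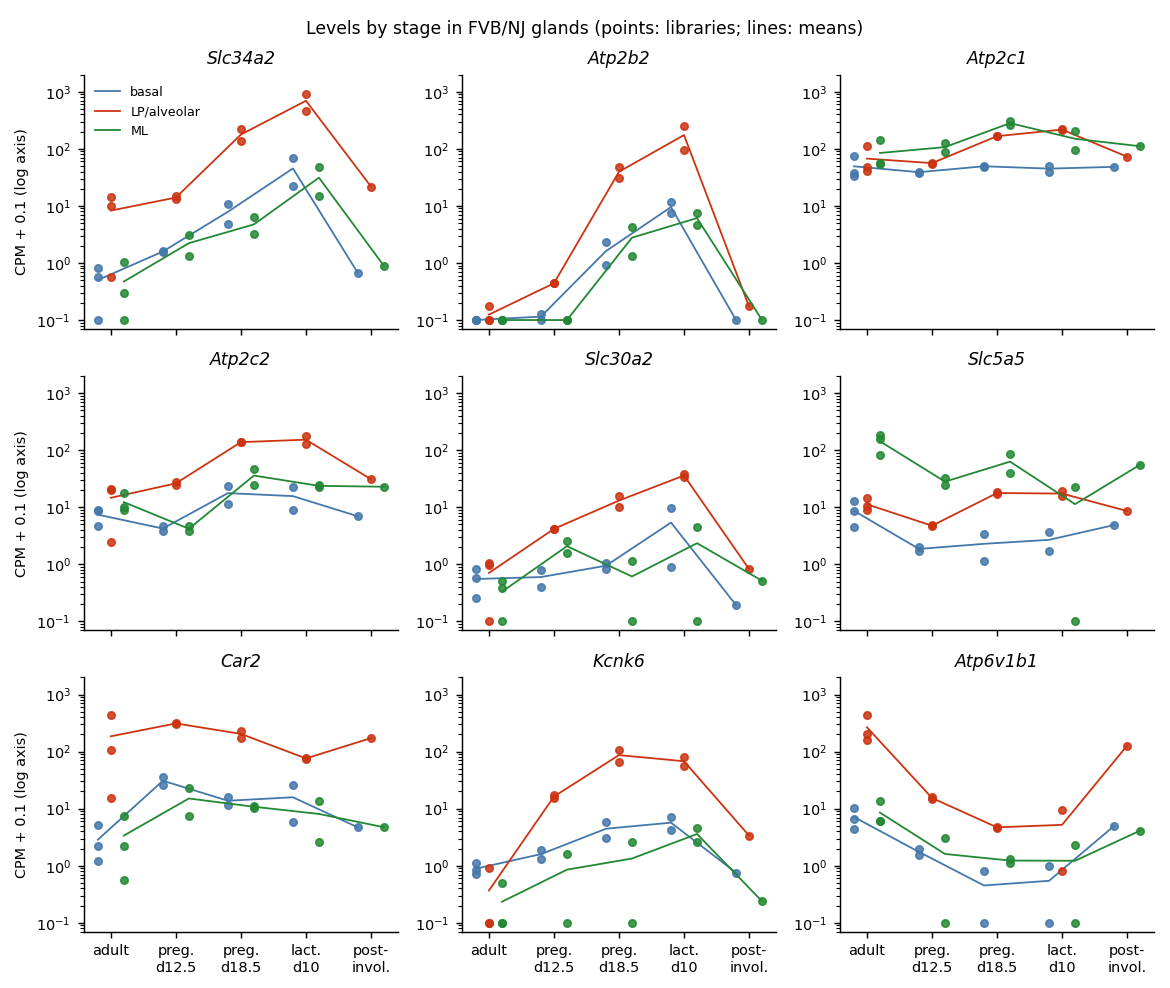
Each panel gives the level of 1 gene (CPM + 0.1, log axis, milk genes left out of the totals) by stage of the FVB/NJ cycle, with a point for each library and a line through the means of basal, LP/alveolar and ML cells. Slc34a2, Atp2b2, Slc30a2 and Kcnk6 are higher in LP/alveolar cells at day 18.5 and in lactation than in the adult, Atp6v1b1 is lower, and Slc5a5 in ML cells is highest in the adult.

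The post-involution library has no replicate and so no test. In LP/alveolar cells Atp2b2 (1 UMI) and Slc30a2, at 0.727 CPM (0.349 to 1.34), were within the range of the adult FVB/NJ libraries. Car2 at 172 CPM (165 to 179) and Atp2c1 at 72.6 CPM (68.1 to 77.2) were also within it. The share of all genes outside this range was not counted, so no reading is made of how many of the 9 were. Above that range were Slc34a2 at 21.7 CPM (19.3 to 24.4), Atp2c2 at 30.9 CPM (28.0 to 34.0) and Kcnk6 at 3.27 CPM (2.39 to 4.38). Slc5a5, at 8.51 CPM (7.04 to 10.2), was below it by less than its counting interval. Atp6v1b1 was at 127 CPM (121 to 133), below the lowest adult library and above every pregnancy and lactation library. In ML cells, where most adult Slc5a5 transcripts were, Slc5a5 was at 55.6 CPM (52.5 to 58.8) post-involution. That level was below the 82.0 to 188 CPM of the adult FVB/NJ ML sums.

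Before the first pregnancy, in C57BL/6 mice with 1 library per stage, Atp6v1b1 in LP/alveolar cells was at 178 CPM (159 to 198) at postnatal day 5, 595 CPM (575 to 615) before puberty, 91.8 CPM (83.8 to 100.2) in TEBs, 366 CPM (352 to 381) in ducts and 365 CPM (353 to 377) in the adult. The pre-puberty level was the highest of the gene in all 51 sums of library and epithelial class. TEBs and ducts of the same age differed beyond counting error, with no replicate library to give other spread. The 8 LP/alveolar markers in the same cells summed to 1227 CPM at day 5 and 2593 before puberty. They summed to 2022 CPM in TEBs, 5720 in ducts and 3316 in the adult, and the part of these differences was not tested. Car2 in the same cells was at 8.46 CPM (4.84 to 13.7) at day 5, 5.91 CPM (4.07 to 8.30) before puberty, 70.5 CPM (63.5 to 77.9) in TEBs and 44.9 CPM (40.0 to 50.2) in ducts. Over all pre-puberty cells with no gate Car2 was at 225 CPM, in a library with 204 cells of the erythroid class, a lineage rich in this enzyme. The part of the erythroid cells in this level was not tested.

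Slc5a5 in ML cells was at 0.970 CPM (0.356 to 2.11) at day 5, 48.4 CPM (43.3 to 54.0) before puberty, 89.6 CPM (86.0 to 93.4) in TEBs, 185 CPM (176 to 194) in ducts and 244 CPM (239 to 249) in the adult. No interval overlapped that of the next sample listed, of which TEBs and ducts are of the same age. The 8 ML markers in the same cells summed to 2178 CPM at day 5 and 5118 before puberty. They summed to 5755 CPM in TEBs, 5587 in ducts and 10225 in the adult. The part of these differences in the Slc5a5 levels was not tested. Atp2b2 gave 0 UMIs in LP/alveolar cells at day 5, before puberty and in ducts, where a count of 0 allows up to 1.59, 0.537 and 0.441 CPM at 3 counts, and 1 in TEBs. At E18.5 the LP/alveolar class gave 2 UMIs of Atp6v1b1 and 6 of Atp2c1, too few to compare.

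The third question was whether the lactation changes differed between classes. In basal cells 3 of 9 genes passed from the adult to lactation (4.41% of 13616 genes did, 3.45% upward and 0.955% downward), all upward: Atp2b2 (log2 change 9.87 ± 1.23, edgeR adjusted p = 0.00261), Slc34a2 (7.07 ± 0.85, adjusted p = 0.000896) and Kcnk6 (2.79 ± 0.65, adjusted p = 0.0348). Adult FVB/NJ basal cells held 0 UMIs of Atp2b2 against 22 in lactation, so that its fitted change depends on the prior count. With the adult group set at 3 counts in all, the ratio of pooled levels was 113, without allowance for counting error. In the same basal sums LP/alveolar markers were at 337 to 1151 CPM in the adult and 942 to 3508 in lactation. Endothelial markers were at 3.85 to 5.20 and 76.5 to 346 CPM, and immune markers at 0.811 to 1.82 and 81.9 to 253 CPM. The part of these differences in the basal changes was not tested. The Kcnk6 call was lost without any one of 7 libraries, all but P7 and D12, and on totals with the milk genes, in cells with at least 1000 genes and with a stricter gate. In ML cells 2 of the 5 genes tested passed (3.81% of 8197 genes did, 2.90% upward and 0.903% downward), Slc34a2 upward (5.93 ± 0.88, edgeR adjusted p = 0.00271) and Slc5a5 downward (-3.62 ± 0.87, adjusted p = 0.0414). Slc34a2 in ML cells was at 0 to 0.919 CPM in the adult, at most 6.19 in pregnancy and 15.0 to 47.2 in lactation. It passed the low-count filter only through lactation, where it was high, as basal Atp2b2 did. The upward calls of these genes in these classes are therefore a description only. Without F11 the ML change of Slc34a2 lost its call, and without any one of H, G, F4, B4 and D6 or in cells with at least 1000 genes that of Slc5a5 did.

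Slc34a2 was at 68.5 CPM in basal, 47.2 in ML and 53.0 in non-epithelial cells of F11, and at 21.9, 15.0 and 16.7 CPM in those of D6. As a share of the LP/alveolar level of the same library, basal cells had 14.7% (11.5 to 18.4) in F11 and 2.38% (1.57 to 3.47) in D6, and non-epithelial cells 11.3% (7.80 to 16.0) and 1.81% (1.41 to 2.29), with 95% counting intervals. The 8 milk genes gave 20.5% in basal and 13.5% in non-epithelial cells of F11, and 2.84% and 2.35% in those of D6. The shares of Slc34a2 and of the milk genes were thus several-fold higher in F11 than in D6. The share of Atp2b2 in basal cells was also higher in F11, 12.3% (6.49 to 21.1) against 2.88% (1.32 to 5.48) in D6, while in non-epithelial cells the intervals of 10.2% (3.74 to 22.3) and 3.52% (2.49 to 4.84) overlapped. Its levels in basal and non-epithelial cells were 11.6 CPM (6.16 to 19.8) and 9.64 CPM (3.54 to 21.0) in F11 and 7.30 CPM (3.34 to 13.9) and 8.92 CPM (6.31 to 12.2) in D6, with overlapping intervals, while its LP/alveolar level was higher in D6. The part of free RNA in these levels was not tested.

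Atp2c1 had larger shares. Its ML level was 96.9% (76.7 to 121) of the LP/alveolar level in D6 and 43.1% (31.1 to 58.2) in F11, while the milk genes in ML cells were at 3.07% and 9.78%. Non-epithelial cells had 17.5% (14.8 to 20.5) of it in D6 and 25.8% (18.0 to 35.8) in F11. In the adult FVB/NJ libraries non-epithelial cells had 26.5 to 132 CPM of Atp2c1.

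**Figure D3:**
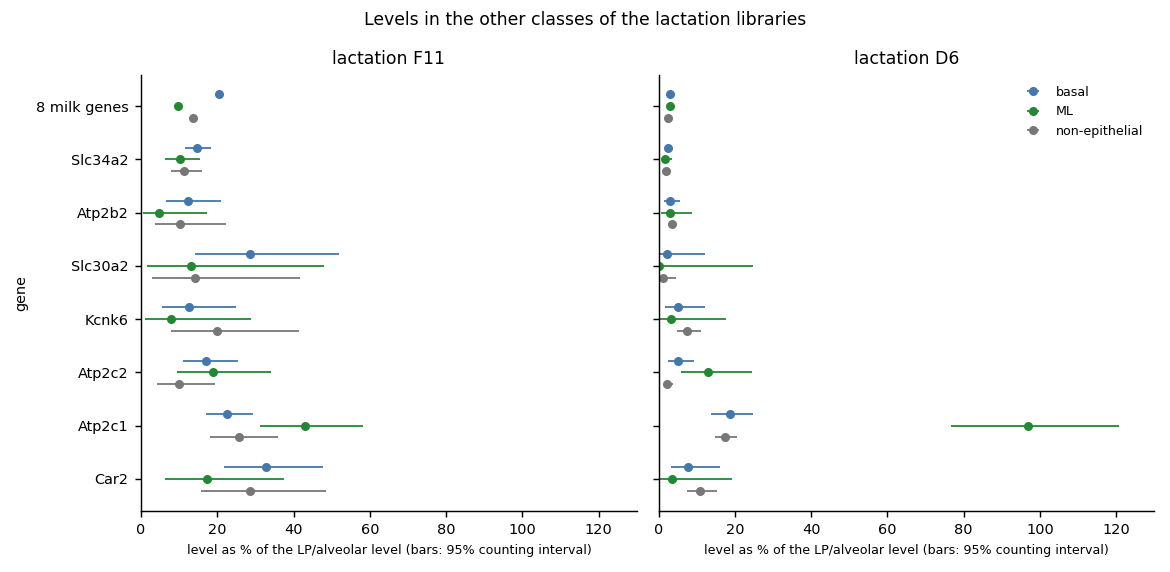
Points give levels in basal, ML and non-epithelial cells as a percent of the LP/alveolar level of the same lactation library, and bars the 95% counting interval. Shown are the 8 milk genes together, Slc34a2, Atp2b2, Slc30a2, Kcnk6, Atp2c2, Atp2c1 and Car2. Slc5a5 and Atp6v1b1 are not shown. In F11 Slc34a2 and Atp2b2 lie at 4.76% to 14.7%, beside 9.78% to 20.5% for the 8 milk genes. In D6 they lie at 1.63% to 3.52%, beside 2.35% to 3.07%. Atp2c1 in ML cells lies well above the milk genes in both libraries.

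The difference itself, the adult to lactation change in LP/alveolar cells minus that in basal cells, passed for 4 of 9 genes, where 5.97% of 14733 genes passed with a positive and 14.0% with a negative difference. It was positive for Kcnk6 (4.15 ± 1.01 on the log2 scale, edgeR adjusted p = 0.0134), Slc5a5 (2.48 ± 0.71, adjusted p = 0.0302) and Atp2c1 (1.88 ± 0.21, adjusted p = 0.000206), and negative for Car2 (-3.12 ± 0.72, adjusted p = 0.0103). Basal Atp2c1 was at 33.4 to 76.1 CPM in the adult FVB/NJ libraries and 50.7 (F11) and 38.9 (D6) in lactation. Basal Car2 was at 1.10 to 5.10 CPM in the adult and 25.8 (F11) and 5.68 (D6) in lactation, with 22.5 and 7.98 CPM in non-epithelial cells of the same lactation libraries. Without F11 the Car2 difference was -1.83 and did not pass, without D6 that of Kcnk6 did not, and without F11, D6 or A10 that of Slc5a5 did not. In cells with at least 1000 genes those of Car2 and Slc5a5 did not pass. On totals with the 8 milk genes the median difference of all genes moved by -1.63 and 1.34% of calls were upward. There the difference was 0.24 for Atp2c1 (adjusted p = 0.504) and 0.81 for Slc5a5 (adjusted p = 0.369), and neither passed, while Kcnk6 (2.54) and Car2 (-4.64) passed in the same direction. For Slc34a2 the difference was -0.75 ± 1.02 (adjusted p = 0.666), at the basal levels given above, and on totals with the milk genes it was -2.34 and passed.

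Against ML cells the difference passed for 3 of 9 genes (12.9% of 13273 genes passed, 4.06% with a positive and 8.80% with a negative difference): Slc5a5 (4.19 ± 0.69 on the log2 scale, edgeR adjusted p = 0.000386), Atp2c2 (2.52 ± 0.80, adjusted p = 0.0429) and Car2 (-2.43 ± 0.76, adjusted p = 0.0402). The Atp2c2 call was lost without D6, in cells with at least 1000 genes and on totals with the milk genes (value 0.71), where the median of all genes moved by -1.76 and 1.18% of calls were upward, and that of Car2 without F11 (value -0.79), A10 or P7 and with TMM scaling, DESeq2, cells with at least 1000 genes or a stricter gate. TMM scaling moved the median of all genes by 0.35 in the comparison with basal and 0.36 in that with ML cells, and the upward share of calls from 29.8% to 54.0% and from 31.6% to 58.7%.

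Slc5a5 in ML cells was at 159.7, 188 and 82.0 CPM in the adult (A10, P7, D12), 24.1 and 31.9 at day 12.5 (H, G), 39.6 and 86.3 at day 18.5 (F4, B4) and 22.5 (10 UMIs, F11) and 0 (0 UMIs, D6) in lactation. Of the pregnancy and lactation libraries, B4 alone lay above the lowest adult one. The 8 ML markers in the same cells summed to 6269 to 7209 CPM in the adult, 2897 to 2954 at day 12.5, 2711 to 3208 at day 18.5 and 3751 to 5278 in lactation, so that they too were lower in every later library than in every adult one. The 8 LP/alveolar markers in ML cells summed to 156 to 760.4 CPM in the adult and 839 to 1654 in lactation. The part of these differences in the Slc5a5 levels was not tested. ML cells were few there, 146 to 235 per library, and the count of 0 in D6 allows up to 7.51 CPM at 3 counts. In F11 the LP/alveolar level, 15.7 CPM, was within the counting interval of the ML level (10.8 to 41.3 CPM). In D6 the LP/alveolar level of 18.8 CPM (16.8 to 21.0) lay above what the ML count of 0 allows.

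**Figure D4:**
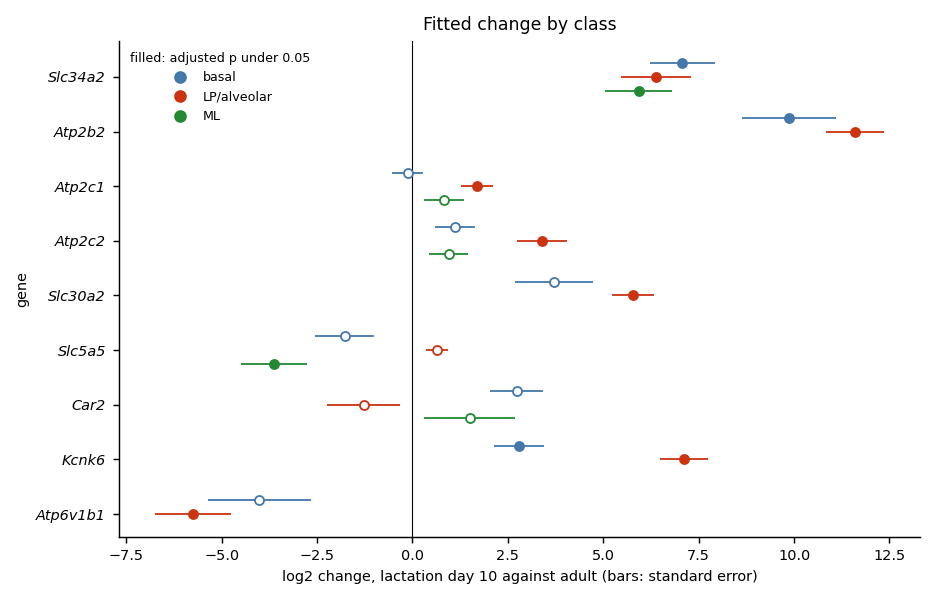
Points give the fitted log2 change from the adult to lactation for each gene in basal, LP/alveolar and ML cells, with bars of 1 standard error and filled points where the edgeR adjusted p was under 0.05. Slc34a2 is above 0 in all 3 classes, Atp6v1b1 is below 0 in LP/alveolar cells, and Slc5a5 is below 0 in ML cells. Genes without an ML point did not pass the low-count filter.

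LP/alveolar cells of lactation were divided by the share of a cell's UMIs that came from the 8 milk genes, which do not enter the CPM. In F11, Slc34a2 was at 73.4 CPM (61.7 to 86.7) in 611 cells with under 50% milk, 559.7 CPM (536 to 584) in 1465 cells with 50 to 80% and 622 CPM (592 to 653) in 1362 cells with 80% or more. In D6 it was at 185 CPM (165 to 206), 959 CPM (938 to 981) and 1053 CPM (1029 to 1078) in 300, 1877 and 1804 cells. In both libraries the larger difference lay between the first bin and the second. Atp2b2 ran in the same order, from 16.4 CPM to 134 CPM in F11 and from 38.2 CPM to 304 CPM in D6, and Slc30a2 from 6.87 CPM to 49.3 CPM and from 5.88 CPM to 49.8 CPM. Atp2c1, Atp2c2 and Kcnk6 were also lowest in the first bin and highest in the last in both libraries. Atp2c1 ran from 141 CPM to 289 CPM in F11 and from 79.4 CPM to 255 CPM in D6. Slc5a5 was highest in the middle bin, but its intervals there overlapped those of the last bin in both libraries. They were 14.6 to 23.7 and 10.8 to 20.7 CPM in F11, and 17.7 to 24.0 and 15.6 to 22.2 CPM in D6.

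Atp6v1b1 had the reverse order. In F11 it was at 28.0 CPM (21.0 to 36.6) with under 50% milk, 6.53 CPM (4.18 to 9.71) with 50 to 80% and 1 UMI with 80% or more, and in D6 it gave 9, 3 and 0 UMIs. Car2 in F11 was at 132 CPM (116 to 149), 71.5 CPM (63.1 to 80.7) and 50.1 CPM (41.9 to 59.4), and in D6 at 98.2 CPM (83.9 to 114), 68.3 CPM (62.7 to 74.2) and 72.9 CPM (66.6 to 79.5), with the first bin the highest in both. The median number of UMIs outside the milk genes also differed between the bins, at 2919, 2268 and 1756.5 in F11 and 5589, 4231 and 3958 in D6, and its part in these differences was not tested.

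**Figure D5:**
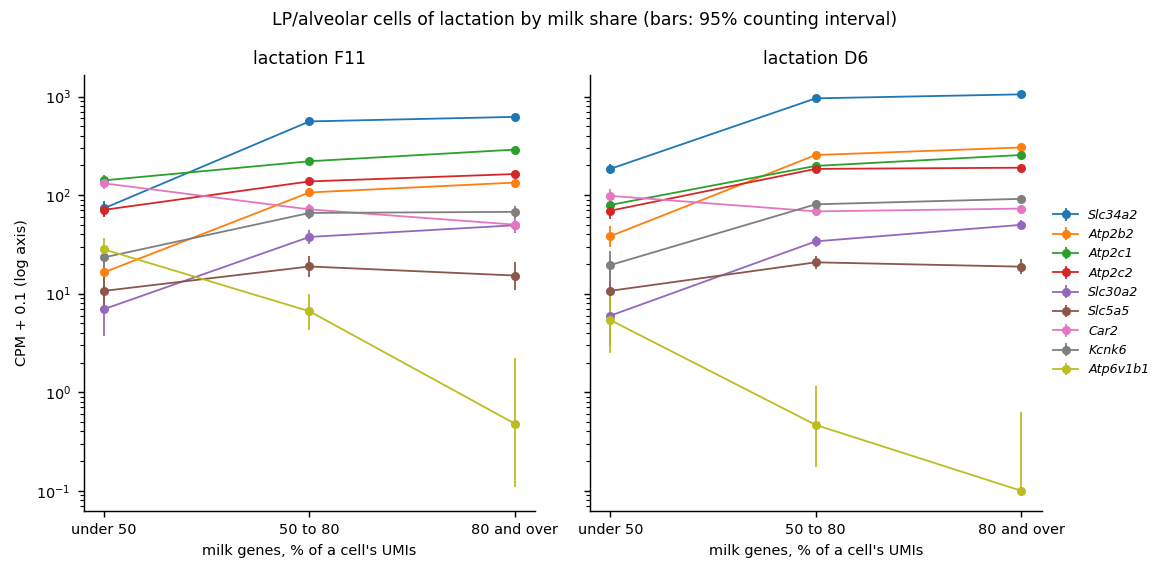
The level of each gene (CPM + 0.1, log axis, milk genes left out of the totals) is given for LP/alveolar cells of the lactation libraries F11 and D6 in 3 bins of the share of a cell's UMIs from milk genes, with 95% counting intervals. Slc34a2, Atp2b2, Slc30a2, Atp2c1, Atp2c2 and Kcnk6 are higher, and Atp6v1b1 lower, in cells with a larger milk share.

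The 3 genes most like each of the 9 were named by Pearson's r of log2(CPM + 1) over the 51 sums of library and epithelial class, among 9945 genes. The sums share libraries and stages, and r is a description only. Slc34a2 was most like Pigr (r = 0.96), the receptor that carries immunoglobulin A into milk, the predicted gene Gm12863 (0.95) and Cel, a lipase of milk (0.95). Pigr was at 556 (F11) and 960.1 CPM (D6) in LP/alveolar cells of lactation, 8.03, 11.8 and 4.18 CPM in the adult (A10, P7, D12) and 119 CPM post-involution. Kcnk6 was most like Gm12863 (0.93), Chrdl2 (0.90) and Hephl1 (0.90), and Atp2b2 like Wfdc17, H2-Q1 and Acacb (0.91 each). Car2 was most like Plin2 (0.90), which coats lipid droplets, Lmo2 (0.89) and Timd2 (0.88). Atp2c1 was most like the claudin gene Cldn8 (0.88), Cmtm6 (0.86) and Ehhadh (0.86), and Atp2c2 like Qsox1 (0.84), Mon1a (0.80) and Cmtm6 (0.79).

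Atp6v1b1 was most like Foxi1 (r = 0.91), which encodes a forkhead factor of ion-transporting cells in kidney and inner ear, then Ncald (0.89) and Clic6 (0.85). Foxi1 was at 36.7, 49.8 and 23.0 CPM in LP/alveolar cells of A10, P7 and D12, 38.2 in C57BL/6 and 1.25 in SWISS. It was at 0.479 and 0.343 CPM at day 12.5 (H, G), 0.637 and 0.752 at day 18.5 (F4, B4), 5.48 and 0.357 in lactation (F11, D6), 22.6 post-involution and 124 before puberty. As for Atp6v1b1, SWISS was the lowest adult library and pre-puberty the highest library. Slc5a5 was most like Rbm20 (0.93), a splicing factor, Folr2 (0.89) and Tmed3 (0.87), and Slc30a2 was below the mean of 5 CPM required. Among the 9, Slc34a2, Atp2b2 and Kcnk6 had r of 0.84 to 0.89 with each other, and Slc5a5 had r of -0.06 to 0.06 with these 3, Car2 and Atp6v1b1.

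Of a list of 93 other genes of mineral and ion handling, 76 were tested in LP/alveolar cells between the adult and lactation. Of these 21 rose, 6 fell and 49 did not pass, which is 27.6% upward and 7.89% downward, beside 11.9% and 20.6% of all genes tested. Their median log2 change was 0.30, and that of all genes -0.38. The list was chosen with earlier results of these data known, so these shares and medians describe it and do not test it. Of the calcium genes 6 of 16 rose and 2 fell, of the zinc genes 5 of 15 rose, of the genes of bicarbonate and pH 3 of 8 rose and 3 fell, and of the copper and iron genes 3 of 6 rose. Of the phosphate genes 1 of 3 rose, of the iodide and chloride genes 1 of 4 rose and 1 fell, and of the potassium genes 1 of 7 rose. Of the other vacuolar proton pump genes 1 of 17 rose and 0 fell, beside the fall of Atp6v1b1. The share that rose was 14.3% of the potassium and 5.88% of the proton pump genes, near and below that of all genes, and the single lists hold 3 to 17 tested genes each.

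The 6 genes of that list named here are those past the threshold with the largest change. Slc39a8, a zinc and manganese importer, was at 0.657 to 1.16 CPM in the adult and 255 and 675 in lactation (F11, D6), a log2 change from the adult of 9.08 ± 0.82 (edgeR adjusted p = 0.000125). Pthlh, which encodes the parathyroid hormone-related protein that mobilises calcium from bone, was at 0.474 to 1.16 CPM in the adult and 65.8 and 79.0 in lactation (6.33 ± 0.40, adjusted p = 3.47e-05). Kcnj15, an inward rectifier potassium channel, was at 0.474 to 1.61 CPM in the adult and 50.8 and 73.7 in lactation (5.75 ± 0.42, adjusted p = 5.93e-05). All 3 rose, with every lactation library above every adult one.

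Car4 and Atp7b were highest in late pregnancy. Car4, a membrane-anchored carbonic anhydrase, gave 0 UMIs in the 3 adult LP/alveolar sums and was at 40.8 (F4) and 69.1 CPM (B4) at day 18.5 and 4.87 (F11) and 4.10 (D6) in lactation. With the adult group set at 3 counts in all, the ratio of pooled levels in lactation to the adult was 29.2, without allowance for counting error. The fitted log2 change that places it among the 6, 9.24 ± 0.95 (edgeR adjusted p = 0.000518), depends on the prior count. Atp7b, a copper pump, gave 2 UMIs over the adult libraries and was at 26.2 (F4) and 49.1 CPM (B4) at day 18.5 and 15.6 (F11) and 15.8 (D6) in lactation (7.24 ± 0.61, adjusted p = 9.42e-05), a ratio of pooled levels from the adult to lactation of 158 (95% counting interval 43.4 to 1308). Car12, another membrane carbonic anhydrase, fell from 0.474 to 8.60 CPM in the adult to 0.122 (1 UMI, F11) and 0.416 (D6) in lactation (-3.89 ± 0.95, adjusted p = 0.0127).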

How the data were processed

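The authors deposited raw UMI counts per gene and cell for 18 libraries, made with Cell Ranger against mm10. The submitters' processing notes name version 3.1.0, and the headers of the matrices name 3.0.2 in 16 libraries and 3.1.0 in 2, those of postnatal day 5 and before puberty. These deposited counts, 31053 features in each, were used with no further normalization by the authors. Cells with more than 500 genes were kept, within the upper limits that the study gives for each library, which were its treatment of doublets; no doublet caller was run. Classes were assigned from the mean scaled expression of fixed marker lists, with a lowest score of 0.1 and a margin of 0.05 over the next class. Counts were summed per library and class. Library sizes were UMIs outside the caseins, Wap, Lalba and Glycam1.

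Sums of at least 20 cells were compared with edgeR 4.0.16 (glmQLFit and glmQLFTest, R 4.3.3), with low-count genes removed by filterByExpr and p-values adjusted by Benjamini-Hochberg over all genes tested. Comparisons of classes had the library as a block, and standard errors were the log2 change divided by the root of F. Values were computed with Python 3.11.15, numpy 2.4.6, pandas 2.3.3 and scipy 1.17.1. The scripts were tested on simulated counts. Alternatives were TMM factors, totals with milk genes, DESeq2 1.42.0, no low-count filter, at least 1000 genes per cell, a stricter gate (margin 0.1) and each library left out.

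All 9 genes were tested in every comparison in which they passed the low-count filter. Genes not named in a comparison were not tested there or did not pass at an adjusted p under 0.05. Of the 93 other transport genes the 6 called with the largest log2 change were named, and for each of the 9 with a mean of at least 5 CPM the 3 genes of highest r. The 9 genes and the lists were chosen with earlier results of these data known. No column of per-sample values was left unused. Library totals of 9920346 to 93234616 UMIs set the counting error, which Poisson intervals give for single libraries. Gene positions and promoters are from the GRCm38 annotation, the build of mm10.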

Additional observations from a re-analysis of the deposited data

Results flagged for a closer look

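The adult to lactation change in LP/alveolar cells differed from that in basal cells, by a test of the difference itself, by -3.12 for Car2, 4.15 for Kcnk6, 2.48 for Slc5a5 and 1.88 for Atp2c1 on the log2 scale. It differed from that in ML cells by -2.43 for Car2, 4.19 for Slc5a5 and 2.52 for Atp2c2.

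In the 5 adult libraries P7 stood far above the others by the ratio of its gap to the whole range. It had 112 CPM of Atp2c1 in LP/alveolar, 142 in ML and 76.1 in basal cells, and 434 CPM of Car2 in LP/alveolar cells. Such a gap arises by chance in about 1 in 20 groups, and 24 groups were examined. P7 is also the library with barcodes of 14 bases and the fewest UMIs.

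The E18.5 skin library, from C57BL/6 embryos, entered no comparison. Over its kept cells, nearly all of the fibroblast class, it held more than 3 counts of 6 of the 9 genes, with 19.4 CPM of Atp2c1, 0.436 of Slc30a2, 1.29 of Slc5a5, 1.35 of Car2, 4.21 of Kcnk6 and 1.35 of Atp6v1b1.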

How the results depend on the processing

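Of 1193 values of single genes under the alternatives, 70 lost their call and 59 gained one in the same direction. 34 changed sign, of which 13 moved by less than 1 standard error and 17 by more with no call in either fit, such as Car2 from the adult to lactation without P7, and 4 had a call in 1 fit or both. These 4 were on totals with the 8 milk genes: Atp2c1 from day 18.5 to lactation (-1.11, adjusted p = 0.0498), Atp2c1 (-0.39) and Slc5a5 (-1.45, adjusted p = 0.00165) from the adult to lactation, and Atp2c1 between LP/alveolar and ML cells in its lactation change (-0.91). Those totals hold the milk UMIs of lactation by construction.

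The share of all genes that passed under a setting is given in parentheses after each count. From day 12.5 to day 18.5, 2 of the 9 genes passed (0.727%), against 7 (5.84%) with DESeq2, 8 (4.42%) with no low-count filter and 1 (0.618%) with a stricter gate, and 0 to 6 (0% to 7.50%) with each library left out. From day 18.5 to lactation 1 passed (4.79%), against 4 (74.3%) on totals with milk genes and 2 (8.41%) with DESeq2. The count was 3 (7.39%) with no filter and 0 (3.64%) in cells with at least 1000 genes, and changed with single libraries left out. In basal cells 3 passed (4.41%), 5 (8.42%) with DESeq2, 6 (7.32%) with no filter and 2 to 4 (1.64% to 7.07%) with each library left out, and in ML cells 2 (3.81%), 1 (2.24%) with at least 1000 genes and 1 to 3 (0.970% to 6.93%) with each library left out. The difference between LP/alveolar and basal changes passed for 4 (5.97% with a positive and 14.0% with a negative difference), 2 (14.5%) with at least 1000 genes and 2 to 4 (6.66% to 19.6%) with each library left out, and that with ML cells for 3 (12.9%) and 2 to 3 (6.24% to 12.4%). With each library left out, 1 to 5 (0.566% to 19.0%) passed from the adult to day 12.5, 6 to 8 (10.0% to 40.9%) from the adult to lactation, 3 to 4 (36.1% to 42.8%) between adult LP/alveolar and basal and 4 to 5 (33.8% to 40.5%) between adult LP/alveolar and ML cells. The cause was not tested.

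Stages were compared without pairing, because the study describes mice pooled for each time point. It also reports that some samples were processed concurrently, among them TEBs with ducts and adult FVB/N with post-involution. Where 1 library of a stage was left out, the remaining one was taken to vary like the other stages. Stages of pregnancy and lactation had 2 libraries each and 146 to 235 ML cells per library, which limits calls in ML cells, and C57BL/6 and SWISS stages had 1 library each, so that strain and age cannot be told apart from the library.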
